A study of Mus musculus with 48 samples.

Results

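Levels of 10 genes of olfactory bulb interneurons, and of the neuroblasts that become them, were followed through 48 mouse RNA-seq libraries of cells sorted from the olfactory bulb, the cortex and the hippocampus. The genes were Dcx, Dlx1, Dlx2, Dlx5, Dlx6, Sp8, Sp9, Meis2, Th and Calb2. They were taken by gene symbol and were found in all 6 tables, as 10 of 24421 gene entries. The 48 libraries formed 16 groups of 3. A first set came from Aldh1l1-GFP mice, in which GFP marks astrocytes, labelled Gq-CNO or Gq-Saline. The name Gq refers to an engineered receptor acting through Gq proteins, for which CNO serves as the drug; the cells that carried it are not given in the labels. From these mice a GFP sort labelled astrocytes and an mCh sort labelled neurons were made from each of the 3 regions. A second pair of groups held GFP astrocytes of the bulb from Aldh1l1-GFP mice labelled CNO control or untreated. A last pair of bulb groups, labelled mCh astrocytes, came from mice carrying the floxed Slc22a3 allele (Slc22a3-FF), given Gfap-Cre (labelled Slc22a3-cKO) or Gfap-mCh (the flox control). The table header names the sort of this pair RFP in the Slc22a3-cKO libraries and mCh in the flox controls, while the sample titles give mCh for both; they were taken as 1 sort, and a difference in sorting cannot be told apart from the genotype. The labels give no ages and do not say if replicates are different mice. The p-values therefore rest on library-to-library spread alone, part of which may be technical.

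New neurons reach the adult mouse olfactory bulb as neuroblasts that are born in the subventricular zone and migrate along the rostral migratory stream. In the bulb they become GABAergic granule cells and periglomerular cells, some of which make dopamine or contain calretinin. Dcx encodes doublecortin, a microtubule protein of migrating neuroblasts and young neurons. The Dlx genes encode homeodomain transcription factors of forebrain GABAergic lineages, Sp8 and Sp9 zinc finger factors of the same lineages, and Meis2 a homeodomain factor needed for dopaminergic bulb neurons. Th encodes tyrosine hydroxylase, the rate-limiting enzyme of dopamine synthesis, and Calb2 encodes calretinin, a calcium-binding protein; both mark periglomerular subtypes. Neural stem cells of the subventricular zone share the Gfap promoter with astrocytes, which bears on a Gfap-driven Cre or mCh as a tool for astrocytes.

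The libraries held 228048 to 24664376 reads, and 3 of them, all cortical, held under 1000000. Levels are given as RPM, the reads of a gene scaled to 1000000 per library. Astrocyte markers summed to 45803 to 132243 RPM in the GFP sorts and to 1796 to 21339 RPM in the mCh sorts. In the mCh sorts of the Gq mice, labelled neurons, 10 neuron markers summed to 1804 to 5050 RPM, 8 oligodendrocyte markers to 18277 to 60108 RPM and 8 microglia markers to 3225 to 11444 RPM. With these markers of other cells present, the libraries labelled neurons are called the mCh sort here. In the bulb libraries labelled mCh astrocytes, the sum of astrocyte markers in Slc22a3-cKO (1796 to 4658 RPM) was below that of microglia markers (4846 to 9514 RPM), so these too are called by their sort. GFP sorts also held neuron markers, at 602 to 1748 RPM, with the highest value in a cortical Gq-Saline library numbered 4 that also had 2234 RPM of microglia markers. In 4 cortical and hippocampal GFP libraries the number 4 comes from the table header and is in no sample title, so these were matched by group alone. The 4 markers of medial ganglionic eminence interneurons (Lhx6, Sst, Pvalb and Nkx2-1) summed to at most 5.06 RPM in a bulb library, against at most 87.7 RPM in a cortical and 55.7 RPM in a hippocampal one. Lhx6 and Nkx2-1 had no read in any bulb library, nor in 4 of the 8 groups of the other regions.

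Promoter sequences are shown for Dcx, Sp8, Sp9 and Th, where Sp8 and Th were called in all 4 comparisons of the bulb with another region, Sp9 is the close relative of Sp8, and Dcx had reads in every library. They are RefSeq windows (build GRCm38.p6, gene strand, 250 bases before to 50 after an annotated start), and 7 of the 10 genes had an entry, 10 entries in all. Capitals mark matches to 4 motifs searched on both strands: TAATTA, a homeodomain core; TGACAG, the Meis core; GGGCGG, the GC box of Sp factors; and TGACGTCA, the cyclic AMP response element. Among 32851 promoter windows of the same length, 5.29% held TAATTA, 6300 windows TGACAG, 35.7% GGGCGG and 1.79% TGACGTCA. Dcx, chrX:143933170-143933469, minus strand, has TAATTA, as has its second entry. Sp8, chr12:118846079-118846378, plus strand, has TGACAG, read here as CTGTCA. Sp9, chr2:73271676-73271975, plus strand, has GGGCGG, read here as CCGCCC. Th, chr7:142899946-142900245, minus strand, has both GGGCGG and TGACGTCA.
Dcx: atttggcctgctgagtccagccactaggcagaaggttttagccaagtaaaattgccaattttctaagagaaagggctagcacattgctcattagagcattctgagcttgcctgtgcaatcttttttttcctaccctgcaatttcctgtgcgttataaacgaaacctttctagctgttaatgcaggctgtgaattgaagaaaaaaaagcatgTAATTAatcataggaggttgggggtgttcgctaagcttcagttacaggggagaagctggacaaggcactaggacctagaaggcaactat
Sp8: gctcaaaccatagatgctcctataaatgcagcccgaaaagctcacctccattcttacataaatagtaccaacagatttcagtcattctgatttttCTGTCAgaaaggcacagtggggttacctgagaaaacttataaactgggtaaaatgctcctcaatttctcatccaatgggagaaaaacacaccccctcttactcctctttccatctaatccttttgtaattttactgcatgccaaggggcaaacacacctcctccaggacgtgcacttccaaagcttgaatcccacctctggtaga
Sp9: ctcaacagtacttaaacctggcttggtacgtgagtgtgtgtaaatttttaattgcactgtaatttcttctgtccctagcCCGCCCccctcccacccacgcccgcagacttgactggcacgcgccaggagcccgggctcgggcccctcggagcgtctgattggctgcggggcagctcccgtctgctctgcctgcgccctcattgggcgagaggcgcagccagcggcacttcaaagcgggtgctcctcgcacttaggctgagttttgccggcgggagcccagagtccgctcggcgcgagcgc
Th: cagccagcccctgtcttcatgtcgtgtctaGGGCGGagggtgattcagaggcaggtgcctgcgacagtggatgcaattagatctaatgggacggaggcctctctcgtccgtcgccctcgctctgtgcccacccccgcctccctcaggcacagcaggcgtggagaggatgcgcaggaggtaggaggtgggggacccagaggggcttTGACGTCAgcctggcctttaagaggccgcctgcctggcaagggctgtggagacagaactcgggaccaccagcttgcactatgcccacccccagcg
GGGCGG was also present in the windows of Dlx1 and Dlx2 and in another Sp8 entry, a further Sp8 entry held TAATTA, and the Meis2 window held none of the 4 motifs. Dlx5, Dlx6 and Calb2 had no entry. A match describes letters in a window, not a bound site.

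In GENCODE vM21 (mm10) Dlx1 and Dlx2 lie side by side on chromosome 2, at 71528113-71533981 and 71543408-71546754, on opposite strands. Dlx6 (chromosome 6, 6863334-6868568) and Dlx5 (6877805-6882085) form a like pair. Sp9 (2:73271925-73284706) and Meis2 (2:115863064-116065839) share chromosome 2, while Sp8 is on chromosome 12, Th on chromosome 7, Calb2 on chromosome 8 and Dcx on chromosome X. Dlx1as overlaps Dlx1 over 5869 bases, and Dlx6os1 (5235 bases) and Dlx6os2 (1354 bases) overlap Dlx6. Whether reads were counted by strand is not given in the sources used here, so reads of Dlx1 and Dlx6 cannot be told apart from those of their antisense partners.

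Across the whole series 8 of the 10 genes were largely genes of the bulb libraries, while Dcx and Meis2 had reads in every library. Among the 24 bulb libraries, Sp8, Th and Calb2 had reads in 23, Dlx1 and Sp9 in 22, Dlx5 in 20, Dlx6 in 19 and Dlx2 in 18. Among the 24 cortical and hippocampal libraries, Calb2 had reads in 15, Sp9 in 12, Sp8 in 10, Dlx1 in 7, Dlx2 and Dlx6 in 3, and Dlx5 and Th in 1. A count of 0 allows up to 3 reads, which is 13.2 RPM in the shallowest library, a cortical mCh library, and it covers counting error only.

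Per kilobase of exons, the level scale on which genes can be set side by side, Meis2 was highest in bulb GFP libraries of Gq-CNO mice at 11.8 RPM per kb, followed by Sp8 at 8.40, Dcx at 5.05 and Calb2 at 3.45 RPM per kb. In bulb mCh libraries of the same mice Calb2 was highest at 22.8 RPM per kb, followed by Meis2 at 17.7, Dcx at 11.3, Sp8 at 8.38 and Dlx5 at 7.25 RPM per kb. In these 2 groups Dlx6 had the lowest level per kb in the GFP sort (0.453) and Dlx2 in the mCh sort (1.42), with Dlx6 at 1.44 RPM per kb beside it.

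Dcx had its highest group means in the bulb mCh sort of Gq mice. In the bulb GFP sort it had 31.6, 50.9 and 109 RPM in Gq-CNO, 55.7, 30.1 and 47.3 in Gq-Saline, 19.6, 18.5 and 41.5 in CNO control and 39.2, 98.0 and 15.9 RPM in untreated mice. In the bulb mCh sort it had 103, 122 and 204 RPM in Gq-CNO mice and 360, 150 and 233 RPM in Gq-Saline mice. Cortical and hippocampal mCh libraries also held Dcx, at 8.77 to 176 and 37.4 to 134 RPM, so doublecortin RNA in that sort was not limited to the bulb. GFP libraries of the cortex (1.27 to 24.5 RPM) and hippocampus (0.732 to 19.0 RPM) had less, and the lowest group mean was that of the libraries labelled Slc22a3-cKO, at 1.87 RPM.

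Sp8 separated the bulb libraries of Gq-CNO, Gq-Saline, CNO control and untreated mice from all libraries of other regions. All 12 bulb GFP libraries lay between 25.7 and 67.1 RPM (median 39.36), and the 6 bulb mCh libraries of Gq mice lay between 22.5 and 76.9 RPM (median 46.0). The flox control had 5.26, 16.6 and 7.52 RPM, no cortical mCh library had a read, and the highest value outside the bulb was 4.24 RPM. In the order of the 16 group means, neighbouring groups overlapped in all but 4 of 150 pairs over the 10 genes, and 2 of those 4 were steps of Sp8: between bulb GFP of Gq-Saline mice (mean 32.6 RPM) and the flox control (9.80 RPM), and between the flox control and the next group below it. The others were the step of Calb2 between bulb mCh of Gq-CNO mice (39.7 RPM) and bulb GFP of Gq-Saline mice (15.1 RPM), and that of Meis2 between hippocampal mCh of Gq-Saline mice (33.9 RPM) and the libraries labelled Slc22a3-cKO (14.2 RPM).

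Sp9, the close relative of Sp8, was lower and less regular. It had 1.95 to 7.02 RPM in the 6 bulb GFP libraries of Gq mice and 5.78 to 50.7 RPM in the 6 bulb mCh libraries. Single libraries outside the bulb reached 21.2 RPM (cortical mCh, Gq-CNO) and 15.20 RPM (hippocampal GFP, Gq-CNO).

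Meis2 was the most evenly spread member. Its GFP libraries had 93.6 to 201 RPM in the bulb, 113 to 171 RPM in the cortex and 23.8 to 109 RPM in the hippocampus. The highest single value, 374 RPM, was in replicate 2 of the flox control, whose other libraries had 56.4 and 43.8 RPM.

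Among the Dlx genes Dlx1 was the most regularly detected, at 1.012 to 10.6 RPM in the 12 bulb GFP libraries and 6.38 to 40.5 RPM in the bulb mCh libraries of Gq mice. Outside the bulb its highest value was 10.9 RPM, in a hippocampal GFP library of a Gq-CNO mouse, and 17 of 24 libraries had none. Dlx5 spread widely within groups, with 10.1, 24.7 and 14.4 RPM in bulb mCh libraries of Gq-CNO mice and 1.14, 3.23 and 28.7 RPM in those of Gq-Saline mice. Dlx2 reached 10.4 RPM in an untreated bulb GFP library, and 7.03 RPM in a cortical GFP library of a Gq-CNO mouse. Dlx6 stayed at or below 5.01 RPM in every library.

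Th was close to absent outside the bulb, where 1 library of 24, hippocampal GFP of a Gq-CNO mouse, had 29 reads (1.18 RPM). Within the bulb it varied more than 10-fold among libraries of 1 group: the flox control had 1.24, 42.1 and 2.02 RPM. Calb2 had 1.69 to 18.7 RPM in the 12 bulb GFP libraries and 33.3 to 62.1 RPM in the bulb mCh libraries of Gq mice, and these did not overlap. Outside the bulb its highest value was 20.1 RPM, in the cortical GFP library numbered 4 that stands apart in its neuron and microglia markers.

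**Figure D1:**
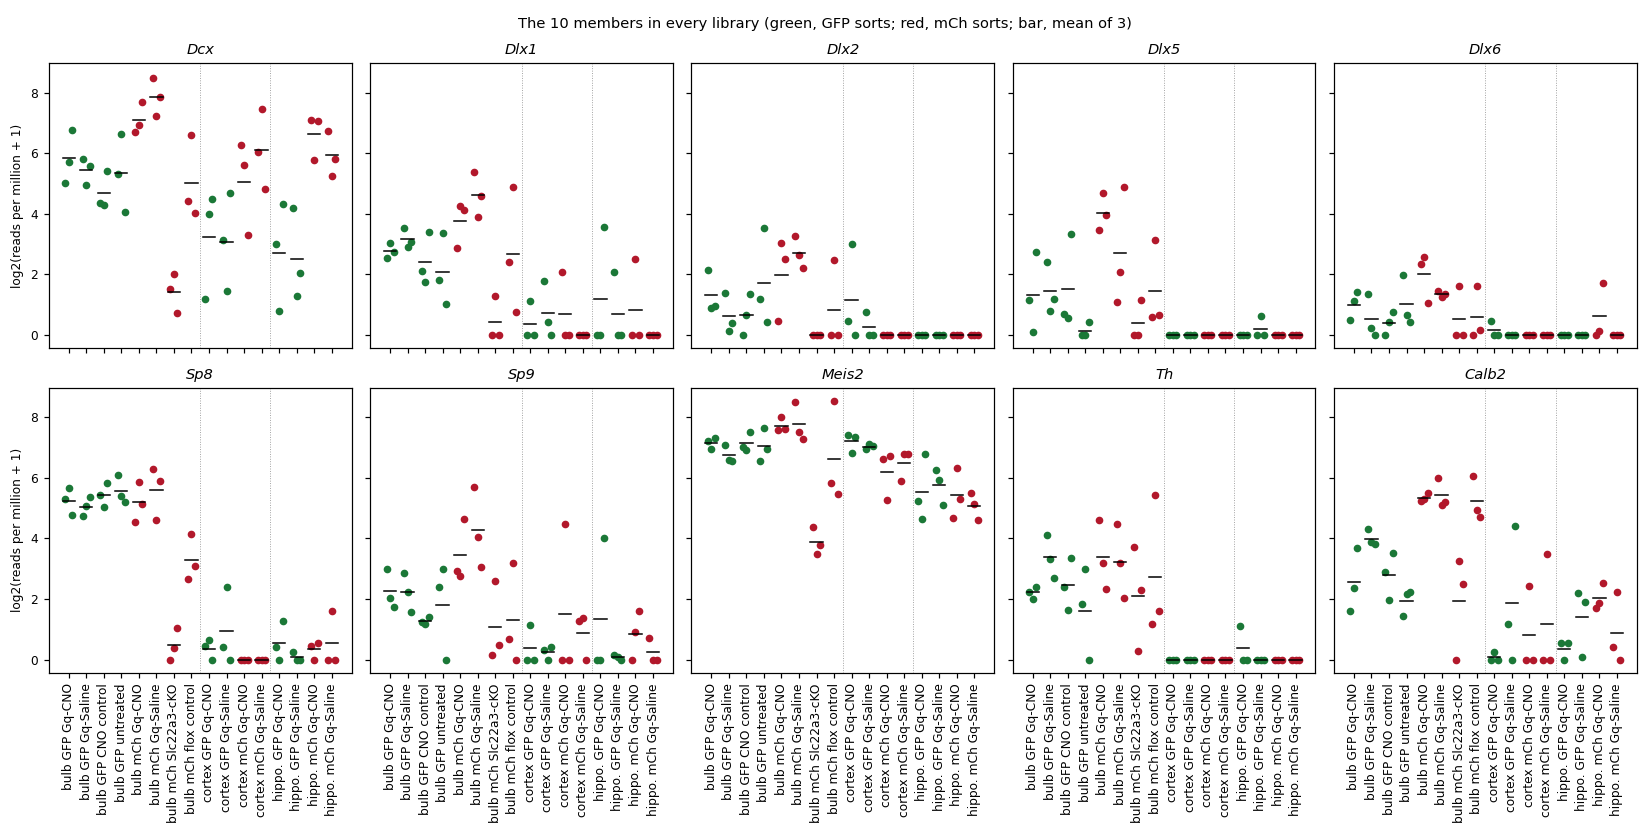
Each panel plots 1 of the 10 genes as log2(RPM + 1) in every library of the 16 groups, with GFP sorts in green, mCh sorts in red and bars at the mean of 3 libraries. Sp8, Th and the Dlx genes are near 0 in nearly all cortical and hippocampal libraries, whereas Dcx and Meis2 are present in all 48 libraries.

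Bulb GFP sorts held more Sp8 and Th than cortical GFP sorts, with no called difference for Meis2. The comparison averaged Gq-CNO and Gq-Saline libraries, 6 of each region, on reads divided by joint size factors (normalised reads), with limma on log2(value + 1). Sp8 had 164, 233 and 332 normalised reads (lowest, median, highest) in the bulb and 0, 2.51 and 30.1 in the cortex, so the regions did not overlap. Its log2 difference was 6.02 (SE 0.99, limma adjusted p = 0.00055). Th had 20.3, 32.5 and 103 normalised reads in the bulb and none in any cortical GFP library, at least 101.3-fold higher in the bulb (3 reads over the cortical group as the floor; limma adjusted p = 0.00013). Meis2 had 611, 840 and 1009 normalised reads in the bulb against 770.5, 1000 and 1349 in the cortex, which overlapped, with a log2 difference of −0.33 (SE 0.33, limma adjusted p = 0.64).

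Dcx had 193, 331 and 700 normalised reads in bulb GFP libraries against 9.25, 77.8 and 192 in cortical ones. These ranges did not overlap, but the log2 difference of 2.57 (SE 0.89) missed the threshold (limma adjusted p = 0.11). Without the cortical Gq-Saline library numbered 4 it was 3.04 with limma adjusted p = 0.0393. Dlx1 (log2 difference 4.0, limma adjusted p = 0.059), Sp9 (3.57, 0.063) and Calb2 (3.85, 0.053) also missed it, each with 1 or 2 cortical libraries whose removal brought it under the threshold. For Calb2 that was again the library numbered 4, without which the log2 difference was 4.85 (limma adjusted p = 0.00532). For Dlx1 they were the cortical Gq-CNO library numbered 2 (limma adjusted p = 0.0436) and the Gq-Saline library numbered 1 (0.0361), and for Sp9 the Gq-CNO library numbered 2 (0.0404). Dlx2 had a log2 difference of 1.00 (limma adjusted p = 0.60), yet fewer reads in the bulb, 86 against 123 in the cortex. Its medians were 0.902 RPM in the bulb and 0.181 RPM in the cortex. There the highest library had 7.03 RPM and 3 libraries had none. Dlx5 had 103 reads in the bulb and none in the cortex, at least 25.5-fold, and Dlx6 had 47 reads against 2 (exact permutation p = 0.0281, two-sided, 6 libraries each).

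Of the 8 members tested in this comparison 2 were called higher in the bulb, where 5.02% of 12921 tested genes were called and 3.22% were called higher. Ranges did not overlap for 6 of all 10 members, Dlx5 under the filter among them, against 5.23% of all tested genes. These counts cannot be read as support, since Dlx1, Dlx2, Sp8, Sp9, Th and Calb2 reached the expression filter mostly through bulb libraries; Th had no cortical or hippocampal library at the filter value, and only Dcx and Meis2 reached it in 4 or more libraries of each region. In bulk RNA, fewer cells of a type and less RNA per cell cannot be told apart. The median log2 difference of all tested genes was 0.40 in this comparison, 0.01 after quantile normalization and 0.10 with edgeR, so differences are read relative to that shift. The share of calls that were higher in the bulb was 64.1%, against 76.8% on RPM, 47.9% with edgeR and 50.8% with DESeq2.

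Against the hippocampus, bulb GFP sorts had more Sp8, Th, Dcx and Meis2. Sp8 had 0, 0.671 and 11.6 normalised reads in hippocampal libraries (lowest, median, highest), and the log2 difference was 6.74 (SE 0.99, limma adjusted p = 0.00017). Th had reads in 1 hippocampal library, and its log2 difference was 4.78 (SE 0.76, limma adjusted p = 0.00043). Dcx had 4.94, 34.5 and 155 normalised reads in the hippocampus, with a log2 difference of 3.29 (SE 0.89, limma adjusted p = 0.040). Meis2 had 160, 326 and 892, with a log2 difference of 1.22 (SE 0.33, limma adjusted p = 0.038). The calls of Dcx and Meis2 each ended when any of 10 of the 12 libraries was left out, with limma adjusted p of 0.0558 to 0.124 for Dcx and 0.0636 to 0.116 for Meis2; the exceptions were the hippocampal Gq-CNO library numbered 4 and the Gq-Saline library numbered 1.

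That hippocampal Gq-CNO library numbered 4 had the highest levels of Dlx1 (10.9 RPM) and Sp9 (15.20 RPM) among hippocampal GFP libraries. With it, Dlx1 had a log2 difference of 3.68 (limma adjusted p = 0.11) and Sp9 of 3.29 (0.11), and without it Dlx1 had 4.86 (0.0113) and Sp9 4.55 (0.00267). Calb2 had a log2 difference of 3.51 (limma adjusted p = 0.10), and Dlx2 had 86 reads in the bulb and none in the hippocampus, at least 39.6-fold, with limma adjusted p = 0.12. Dlx5 had 103 reads against 10, and Dlx6 had 47 against 0, at least 21.6-fold (exact permutation p = 0.00433 and 0.0152, 6 libraries each). In all, 4 of 8 tested members were called, all higher in the bulb, against 3.65% of tested genes called and 2.24% called higher, and 4 had ranges that did not overlap, against 5.08%, with the same limit on reading these counts.

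In the mCh sort the bulb held more of every member than the cortex. Sp8 had 54.1, 111 and 188 normalised reads (lowest, median, highest) in the bulb and none in any cortical mCh library, at least 111-fold higher (log2 difference 6.65, SE 0.89, limma adjusted p = 1.6e-06). Calb2 had 81.95, 89.7 and 152 in the bulb against 0, 0 and 25.5 in the cortex, a log2 difference of 5.27 (SE 0.99, limma adjusted p = 0.00038). Dcx had 247, 438 and 877 in the bulb against 21.0, 139 and 437.5 in the cortex, which overlapped, with a log2 difference of 1.91 (SE 0.44, limma adjusted p = 0.0037). Meis2 had 381, 469.5 and 887 in the bulb against 89.2, 248 and 280 in the cortex, which did not overlap, with a log2 difference of 1.38 (SE 0.35, limma adjusted p = 0.0087).

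The other transcription factors and Th had few or no cortical reads in the mCh sort. Dlx1 had a log2 difference of 4.89 (limma adjusted p = 0.00043). Dlx2, Dlx5 and Th had none in the cortex and were at least 13-fold, 37.1-fold and 32.7-fold higher in the bulb (limma adjusted p = 0.0045, 0.00037 and 0.00028). After quantile normalization Dlx2 was not called (log2 difference 1.89, limma adjusted p = 0.173). The median log2 difference of all tested genes was 0.39 in this comparison and 0.01 after quantile normalization. Dlx6 had 66 reads in the bulb and none in the cortex, at least 7.87-fold (exact permutation p = 0.00216, the smallest that 6 against 6 libraries allow). Sp9 had 13.6, 28.3 and 124 normalised reads in the bulb against 0, 1.83 and 50.7 in the cortex, with a log2 difference of 3.36 (limma adjusted p = 0.034). Its call ended when any of 7 of the 12 libraries was left out, with limma adjusted p of 0.0501 to 0.102, and with edgeR (0.188) and DESeq2 (0.122). The 9 tested members were all called higher, where 8.58% of 12358 tested genes were called and 5.58% called higher. Ranges did not overlap for 8 of all 10 members, Dlx6 under the filter among them, against 4.29% of tested genes. Of the 9 tested, only Dcx and Meis2 reached the filter in most libraries outside the bulb, so these counts cannot be read as support. DESeq2 called 7 of the 9.

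Against the hippocampal mCh sort, 8 of 9 tested members were called higher in the bulb, where 3.91% of tested genes were called and 2.29% called higher, and 8 did not overlap, against 3.38%. The same limit holds for these counts, since Dlx2, Dlx5 and Th had no hippocampal read and only Dcx and Meis2 reached the filter in most libraries outside the bulb. Meis2 had 58.9, 89.0 and 184 normalised reads in the hippocampus and a log2 difference of 2.51 (SE 0.35, limma adjusted p = 3.6e-06). Dcx had 89.9, 197 and 333 in the hippocampus, and its log2 difference of 1.20 (SE 0.44) was not called (limma adjusted p = 0.14). With libraries under 1000000 reads left out it was called (limma adjusted p = 0.0411). Neuroblasts of the dentate gyrus also express Dcx, and their part in the hippocampal reads was not tested. Sp8 had a log2 difference of 5.89 (limma adjusted p = 2.3e-05), Calb2 of 4.42 (0.0048) and Dlx1 of 4.82 (0.00074). Dlx2, Dlx5 and Th had no hippocampal mCh read and were at least 45.0-fold, 128-fold and 113-fold higher in the bulb. Dlx6, under the filter, had 66 reads in the bulb and 11 in the hippocampus. Its libraries overlapped, at 1.09 to 5.01 RPM against 0 to 2.28 RPM. The log2 difference of Sp9, 4.14 (limma adjusted p = 0.012), was not called without bulb Gq-CNO replicate 3 (0.0502) or hippocampal Gq-CNO replicate 1 (0.0512).

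**Figure D2:**
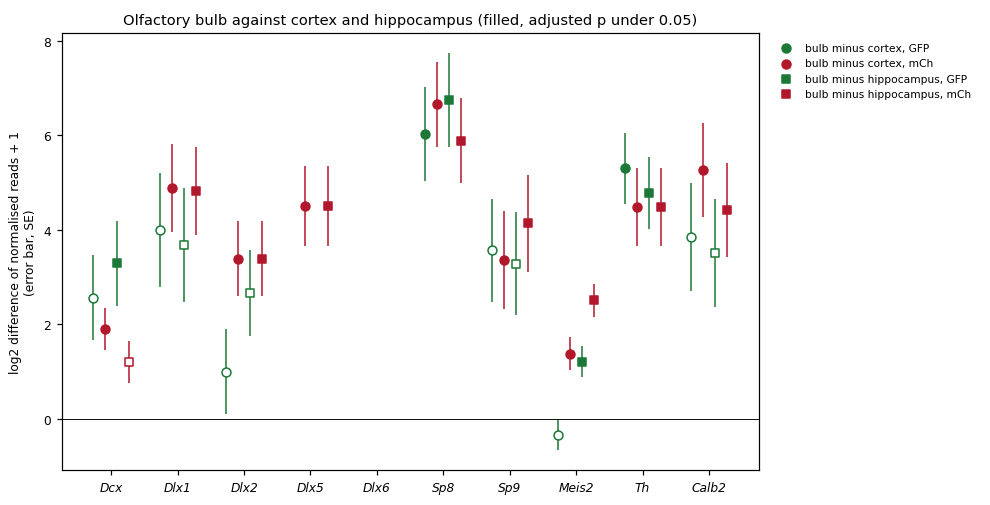
For each gene tested, points show the log2 difference of normalised reads + 1 with its standard error, for bulb minus cortex (circles) and bulb minus hippocampus (squares), in GFP sorts (green) and mCh sorts (red); filled points had a limma adjusted p under 0.05. Sp8 and Th are filled in all 4 comparisons, and Meis2 in bulb minus cortex of the GFP sort lies at −0.33.

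For Meis2 the bulb was called higher than the cortex in the mCh sort and not in the GFP sort. The difference of the 2 effects, GFP minus mCh, was −1.69 (SE 0.50) and missed the threshold (limma adjusted p = 0.0574 over 36 libraries, a test chosen after the values were seen). No member had a called difference of effects, where 2.55% of genes were called for bulb minus cortex and 1.21% for bulb minus hippocampus; Dlx2 came next, at −3.22 for bulb minus cortex (limma adjusted p = 0.0848). Between cortex and hippocampus no member was called in the GFP sort (0.147% of genes called) or the mCh sort (0.388%) by limma or edgeR, and 1 in each sort, Meis2, had an unadjusted limma p under 0.05, as had 9.53% and 10.7% of tested genes. It had 770.5 to 1349 normalised reads in cortical GFP and 160 to 892 in hippocampal GFP libraries, a log2 difference of 1.55 (SE 0.33, limma adjusted p = 0.055). DESeq2 called it in each sort, and in the GFP sort limma called it without the hippocampal Gq-CNO library numbered 4 (1.91, limma adjusted p = 0.00065), the cortical Gq-Saline library numbered 4 (1.51, 0.0409) or the cortical Gq-Saline library numbered 1 (1.59, 0.0488).

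Companion lists held other genes known from these cell types. Like the members, they were chosen with earlier results of these data known, so their calls cannot be read as support. Of all tested genes, 3.22% (GFP sort) and 5.58% (mCh sort) were called higher in the bulb than in the cortex. Against the hippocampus these shares were 2.24% and 2.29%. Whether reads of the companion genes came from the same cells as those of the members was not tested. Of 10 GABAergic identity genes, Gad1, which makes GABA, was called higher in the bulb than in the cortex in the GFP sort (log2 difference 5.06) and in the mCh sort (3.80), with Pbx3 (2.25) and the vesicular GABA transporter Slc32a1 (4.05) beside it in the GFP sort and Gad2 (1.77) in the mCh sort. Zfhx3, a homeobox and zinc finger factor, was called lower in the bulb in the mCh sort (−0.78). Against the hippocampus 6 of 10 were called higher in the mCh sort, among them Gad1 (5.49) and Gad2 (2.86), and 2 higher in the GFP sort, Pbx3 (2.77) and Etv1 (1.04). The list's median log2 difference lay between 1.12 and 2.05 over these 4 comparisons, beside 0.14 to 0.40 for all genes tested.

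Of the 16 neuroblast genes, Robo2, a receptor that guides migrating neuroblasts, was called higher in the bulb in all 4 comparisons (log2 differences of 1.64, 1.84, 1.87 and 1.61). The long noncoding RNA Dlx6os1 was called in 3 of them (3.38, 4.28 and 5.23), and Tubb2b was lower in the bulb in the GFP sort against the cortex (−1.22) and the hippocampus (−1.55). Other than these and Ccnd2 (0.80, GFP sort against the hippocampus), no neuroblast gene passed the test, and the list's median was 1.64 against the cortex and 1.28 against the hippocampus in the GFP sort and 1.1 and 0.44 in the mCh sort. Of 10 granule and periglomerular genes, Synpr (4.42 and 5.23) and Reln (3.31 and 4.50) were called higher than in the cortex in both sorts, and the enkephalin precursor Penk higher than in the hippocampus in both (4.99 and 4.61), where Calb1 was lower (−4.38 and −3.98). Of the 8 tested, 3 were called higher than in the cortex in the GFP sort and 2 in each other comparison. The list's medians in the GFP and mCh sorts were 2.42 and 1.29 against the cortex and 1.99 and 0.97 against the hippocampus. Of 8 dopaminergic genes only Nr2f1 passed the test, lower in the bulb in the GFP sort (−2.75 against the cortex and −3.03 against the hippocampus), beside list medians between −0.19 and 0.85, and of 8 progenitor genes only Egfr, lower than in the cortex in the GFP sort (−0.95) and higher in the mCh sort (2.11), and higher than in the hippocampus in the mCh sort (2.92), beside list medians between −1.19 and −0.07.

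Marker lists of other cells also differed by region. In the mCh sort all 10 astrocyte markers were higher in the bulb, 7 called against the cortex and 7 against the hippocampus, and they summed to 7157 to 21339 RPM in the bulb, against 5415 to 9589 RPM in the cortex and 6399 to 10924 RPM in the hippocampus. In the GFP sort 4 of the 10 were called lower than in the cortex and 1 higher, and 2 lower than in the hippocampus. Of 6 markers of olfactory ensheathing glia, the glia that wrap olfactory axons, 3 were called higher than in the cortex in each sort, and 5 (GFP) and 4 (mCh) higher than in the hippocampus. They summed to 2154 to 3233 RPM in bulb GFP libraries, against 86.1 to 489 RPM in cortical and 190 to 448 RPM in hippocampal ones.

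Of 7 mitral and tufted cell markers tested, 4 were called higher than in the cortex in the GFP sort and 5 higher and 1 lower in the mCh sort, and 3 higher than in the hippocampus in each sort. Tbx21, one of the list's defining transcription factors, had no read in any of the 8 cortical and hippocampal groups, nor in the untreated bulb GFP group. Cortical and hippocampal excitatory neuron markers were called lower in 5 of 5 cases against the hippocampus and 3 of 5 against the cortex in the mCh sort, where they summed to 214 to 568 RPM in the bulb, against 3723 to 5643 RPM in the cortex and 1982 to 6077 RPM in the hippocampus. In that sort 5 of 8 microglia markers were called lower than in the cortex and 3 lower than in the hippocampus. Of 10 neuron markers there, 4 were called lower and 2 higher than in the cortex. The part of these cells in the members' differences was not tested.

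Within the bulb of Gq mice, the GFP sort held less of most members than the mCh sort, with no called difference for Sp8 and Th. Of 9 tested members 5 were called, all lower in the GFP sort, where 29.9% of 12858 genes were called and 16.3% called lower. Dcx had 155, 266 and 557 normalised reads (lowest, median, highest) in the GFP sort against 543, 913 and 1836 in the mCh sort, a log2 difference of −1.83 (SE 0.28, limma adjusted p = 2.4e-05). Calb2 had 11.09, 65.7 and 93.6 against 174, 192 and 317, which did not overlap, a difference of −2.22 (SE 0.42, limma adjusted p = 0.00021). Meis2 had 490, 663 and 803 against 804, 998 and 1857, which did not overlap by a narrow margin, a difference of −0.78 (SE 0.20, limma adjusted p = 0.0050). Non-overlapping groups, 2 members here, made up 15.3% of all tested genes.

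Dlx5 (log2 difference −2.50, limma adjusted p = 0.034) and Sp9 (−1.78, 0.040) were called, yet each lost the call without any of 7 of the 12 libraries, with limma adjusted p of 0.0532 to 0.107 for Dlx5 and 0.0510 to 0.114 for Sp9. Dlx1 at −1.28 (limma adjusted p = 0.052) and Dlx2 at −1.92 (0.099) were not called. Without bulb mCh Gq-CNO replicate 1, Dlx1 (0.0279) and Dlx2 (0.0339) were, and Dlx1 also without bulb mCh Gq-Saline replicate 2 (0.0315). Of 10 other settings 4 called Dlx1, among them edgeR (adjusted p = 0.0442) and DESeq2 (adjusted p = 0.0073), and 6 did not. Sp8 had 129, 187 and 264 normalised reads in the GFP sort against 119, 231 and 393 in the mCh sort, a difference of −0.22 (SE 0.34, limma adjusted p = 0.67). Th had 16.1, 26.1 and 80.9 against 16.3, 41.4 and 125, a difference of −0.53 (SE 0.63, limma adjusted p = 0.57). Dlx6, under the filter, had 0 to 1.65 RPM in the GFP sort and 1.09 to 5.01 RPM in the mCh sort, which overlapped.

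The difference of Sp8 was near 0 in libraries whose general markers differed: 10 of 10 neuron markers were lower in the GFP sort, 8 of them called, and 10 of 10 astrocyte markers were called higher. All 8 microglia, 8 oligodendrocyte and 6 oligodendrocyte precursor markers and 7 of 8 mitral and tufted cell markers were called lower, and their part in the members' differences was not tested. Among the neuroblast genes 9 of 15 tested were called lower, including Stmn2 (−3.0) and Stmn1 (−2.10), and Ccnd2 (2.19) and Robo2 (0.83) were called higher. Of the GABAergic genes 4 of 9 were called lower, including Gad1 (−1.53) and Gad2 (−1.55), and of the granule and periglomerular genes 5 of 8, including Reln (−2.62) and Pcp4 (−2.05). Among the dopaminergic genes Pax6 (1.85), which is also expressed in astrocytes, was called higher and Ddc, the enzyme after Th in dopamine synthesis, lower (−3.90). Among progenitor genes Mki67 (−4.16) and Top2a (−4.22), genes of dividing cells, were called lower and Egfr (1.10) higher. List medians were −1.06, −1.53, −0.52, −1.69 and −1.79 in the order neuroblast, GABAergic, dopaminergic, granule and progenitor, beside 0.04 for all genes tested.

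Gq-CNO treatment gave no called change in any member in any region or sort. In the bulb GFP sort 0.00847% of 11810 tested genes, 1 gene, were called, and in the other 5 comparisons 0%. No member was called by limma, edgeR or DESeq2 in any of the 6, and 1 member each in the bulb GFP and mCh sorts had an unadjusted limma p under 0.05, beside 4.78% and 5.3% of tested genes. In the bulb GFP sort that was Calb2, with 2.07, 4.14 and 11.8 RPM in Gq-CNO mice against 18.7, 13.8 and 12.96 RPM in Gq-Saline mice. All Gq-CNO libraries lay below all Gq-Saline libraries, and the log2 difference was −1.64 (SE 0.70, limma adjusted p = 0.996).

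Th, the other periglomerular gene, had 3.75, 3.05 and 4.25 RPM in bulb GFP libraries of Gq-CNO mice against 16.1, 9.06 and 5.51 RPM in those of Gq-Saline mice. These did not overlap either, with a log2 difference of −1.31 (SE 0.77, limma adjusted p = 0.996). Groups did not overlap for 9.88% of all tested genes, and an exact permutation test of 3 against 3 libraries cannot go below 0.1. Meis2 had 147, 122 and 157 RPM in Gq-CNO against 136, 95.1 and 94.0 RPM in Gq-Saline mice, which overlapped, with a log2 difference of 0.42 (SE 0.22, limma adjusted p = 0.996). Dcx, at 0.39 (SE 0.37), turned to −0.073 without Gq-CNO replicate 3, which had 109 RPM. Sp8 differed by 0.21 (SE 0.37), Dlx1 by −0.44, Dlx5 by −0.59 and Sp9 by 0.07, and Dlx2 and Dlx6 were under the filter, with 66 and 28 reads in Gq-CNO and 20 and 19 in Gq-Saline libraries.

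In the bulb mCh sort Dcx was lower in Gq-CNO mice in its mean, 143 RPM against 247 RPM, but the libraries overlapped. Its log2 difference was −0.79 (SE 0.35, limma adjusted p = 0.900). Dlx1 had 6.38, 18.3 and 16.6 RPM in Gq-CNO against 40.5, 13.8 and 23.0 RPM in Gq-Saline mice, a difference of −0.91 (SE 0.73). Dlx5 had the opposite sign, 1.5 (SE 1.02), and Calb2 (−0.11), Meis2 (−0.07) and Th (0.14) were near 0. Dlx2 (−0.95), Sp8 (−0.43) and Sp9 (−0.89) made 7 of 9 tested members lower, none with groups that did not overlap, against 10.6% of all genes. Neuron markers moved the same way in 7 of 10 cases, and all 10 astrocyte and all 8 microglia markers were higher in Gq-CNO mice, none of them called; their part was not tested.

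**Figure D3:**
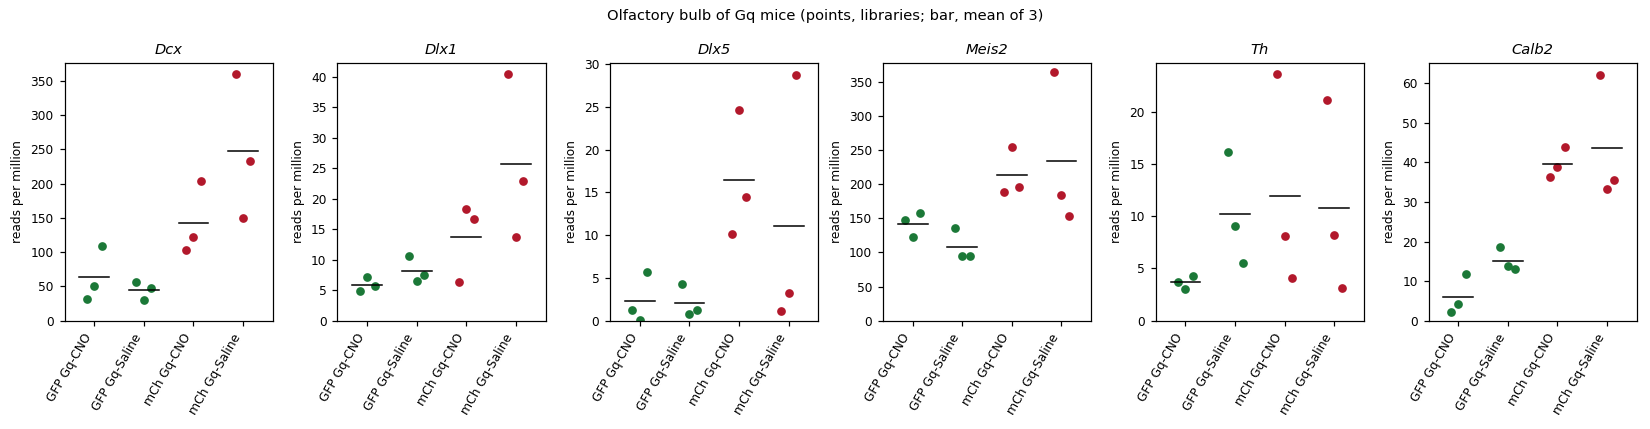
RPM of 6 genes in each bulb library of Gq-CNO and Gq-Saline mice, GFP sort in green and mCh sort in red, with bars at the mean of 3. In the GFP sort the Gq-CNO points of Th (3.05 to 4.25 RPM) and Calb2 (2.07 to 11.8 RPM) lie below all Gq-Saline points, whereas in the mCh sort the groups overlap.

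The Gq-CNO effect in the bulb GFP sort minus that in the mCh sort was −1.52 for Calb2 and 1.16 for Dcx on the log2 scale, and neither passed the test (limma adjusted p = 0.959 for each; 0% of genes called). Outside the bulb Dcx and Meis2 were the only members with enough reads to test. Dcx differed by 0.16 in cortical GFP, −1.15 in cortical mCh, 0.13 in hippocampal GFP and 0.67 in hippocampal mCh libraries. Meis2 differed by 0.21, −0.36, −0.23 and 0.32 in the same order, and all 8 values had a limma adjusted p of 0.929 or more. No gene of the 5 companion lists was called in the bulb in either sort. Those with the smallest unadjusted p in the GFP sort included Kctd12 (−0.49), Penk (2.02), Pbx3 (0.70), Dpysl5 (1.62) and Pax6 (0.71), and in the mCh sort Gad2 (−0.78), Cck (−1.06) and Tpbg (−1.58).

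CNO without the Gq label was examined in bulb GFP libraries, CNO control against untreated mice, where 12.2% of 10940 tested genes were called and none of the 6 tested members was. limma, edgeR and DESeq2 called 0 and 0 had an unadjusted limma p under 0.05, which 27.4% of tested genes had. Dcx had 19.6, 18.5 and 41.5 RPM in CNO control against 39.2, 98.0 and 15.9 RPM in untreated mice, a log2 difference of −0.93 (SE 0.55, limma adjusted p = 0.31). Without untreated replicate 3 it was −1.59 with limma adjusted p = 0.0485. Sp8 had 42.0, 31.6 and 55.7 RPM in CNO control against 67.1, 41.7 and 36.1 RPM in untreated mice, a difference of −0.41 (SE 0.33, limma adjusted p = 0.46). Meis2 differed by −0.17, Dlx1 by 0.24, Th by 1.23 and Calb2 by 0.75, none called.

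Dlx5 was under the filter but did not overlap, with 0.604, 0.466 and 9.09 RPM in CNO control and 0, 0 and 0.337 RPM in untreated mice, that is 73 reads against 1 (exact permutation p = 0.1, the smallest possible; 32.9% of tested genes did not overlap). Dlx2, Dlx6 and Sp9 were also under the filter, with 16, 8 and 32 reads in CNO control and 22, 9 and 22 in untreated libraries. Depth differed, at 6619479 to 8577907 reads in CNO control and 1724893 to 2964862 in untreated libraries. Scaled for depth, the group means of these genes were lower in CNO control, but their libraries overlapped. The means were 0.707 against 4.013 RPM for Dlx2, 0.350 against 1.29 RPM for Dlx6 and 1.44 against 3.725 RPM for Sp9. Of the companion lists Robo2 (−0.56, limma adjusted p = 0.0464) was called lower and Foxp2 (2.07, 0.0267), a factor of granule cell subsets, higher. Markers of other cells differed here too. All 8 microglia markers were lower, 6 of them called, and summed to 100.8 to 172 RPM in CNO control against 442 to 594 RPM in untreated mice. Of 6 mitral and tufted cell markers tested 4 were higher, 3 of them called, and 2 lower, with sums of 66.1 to 141 RPM against 16.5 to 32.5 RPM. Of 6 ensheathing glia markers 4 were called higher and 1 lower, and of 10 astrocyte markers 4 were called lower. The part of these cells in the members' values was not tested.

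The check of the targeted gene in the floxed mice was not informative: Slc22a3 had 0, 0 and 12 reads in the libraries labelled Slc22a3-cKO and none in the 3 flox controls. Group labels are therefore used as given. In this comparison the libraries labelled Slc22a3-cKO had less Dcx than the flox controls. Dcx had 1.89, 3.07 and 0.667 RPM against 20.5, 97.2 and 15.3 RPM, a log2 difference of −4.02 (SE 0.90, limma adjusted p = 0.0416). Groups did not overlap, but the call ended without any of 5 of the 6 libraries (limma adjusted p of 0.0581 to 0.298; it held without Slc22a3-cKO replicate 3), and without flox control replicate 2, which had 97.2 RPM, the difference was −3.20.

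Sp8, Meis2 and Calb2 showed the same separation of libraries without passing the test. Sp8 had 0, 0.299 and 1.07 RPM in the libraries labelled Slc22a3-cKO against 5.26, 16.6 and 7.52 RPM in the flox controls, a log2 difference of −4.45 (SE 1.19, limma adjusted p = 0.070). Meis2 had 19.8, 10.2 and 12.7 RPM against 56.4, 374 and 43.8 RPM, a difference of −2.63 (SE 0.69, limma adjusted p = 0.067). Calb2 had 0, 8.60 and 4.67 RPM against 65.7, 29.6 and 25.1 RPM, a difference of −4.34 (SE 1.37, limma adjusted p = 0.11). Without Slc22a3-cKO replicate 3, Sp8 (−5.26, limma adjusted p = 0.0199) and Calb2 (−5.08, 0.0472) were called. DESeq2 called Dcx, Sp8 (adjusted p = 0.0032), Meis2 (7.9e-05) and Calb2 (0.0246), and edgeR called 1 member. Groups did not overlap for 4 members, against 22.7% of all 13465 tested genes; 2.53% of genes were called and 1.17% called lower.

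Dlx1 had 0, 1.42 and 0 RPM in the libraries labelled Slc22a3-cKO against 4.34, 28.6 and 0.673 RPM in the flox controls, a difference of −4.03 (SE 1.62, limma adjusted p = 0.20). Th did not follow, with 12.2, 0.224 and 3.87 RPM against 1.24, 42.1 and 2.02 RPM, a difference of −0.80 (SE 1.51, limma adjusted p = 0.83) that turned positive without Slc22a3-cKO replicate 2 (0.64) or flox control replicate 2 (0.74). Under the filter, Dlx2 had 0 and 57 reads, Dlx5 9 and 107, Dlx6 28 and 27, and Sp9 71 and 107 reads, in the libraries labelled Slc22a3-cKO and in the flox controls. Flox control replicate 2 was the highest library of its group for every member but Calb2.

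**Figure D4:**
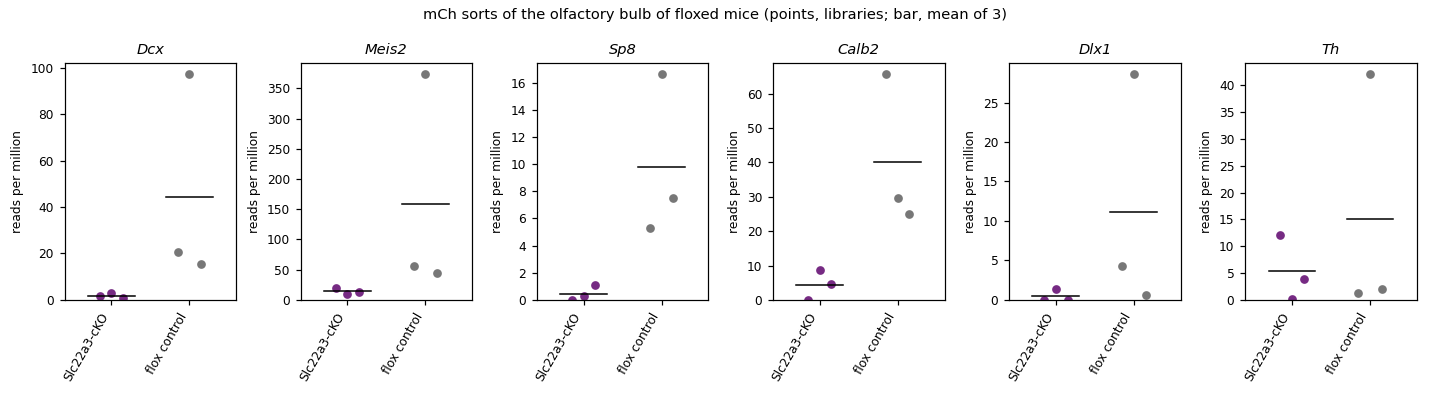
RPM of 6 genes in the bulb mCh libraries labelled Slc22a3-cKO and in the flox controls, with bars at the mean of 3. The libraries labelled Slc22a3-cKO lie below all flox controls for Dcx, Meis2, Sp8 and Calb2, and the groups overlap for Dlx1 and Th.

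Markers of other cells moved with this comparison. All 10 neuron markers were lower in the libraries labelled Slc22a3-cKO, 4 of them called (Syp −2.59, Snap25 −2.75, Nefm −3.34 and Syt1 −1.97), and they summed to 374 to 1100 RPM against 1413 to 3938 RPM in the flox controls. Mitral and tufted cell markers, 8 of 8 lower and none called, summed to 88.1 to 238 RPM against 429 to 1343 RPM, and astrocyte markers, 9 of 10 lower with Aqp4 (−2.40) and Slc1a2 (−2.16) called, to 1796 to 4658 RPM against 5730 to 12213 RPM. Of 6 oligodendrocyte precursor markers 5 were lower, 1 of them called, with a list median of −3.30 and sums of 20.3 to 136 RPM against 100.9 to 257 RPM. Oligodendrocyte markers were lower in 8 of 8 cases, none called, with a median of −1.74 and sums that overlapped, at 778 to 3663 RPM against 1577 to 3466 RPM. Of 4 excitatory neuron markers tested 3 were lower, 1 of them called. Microglia markers were higher in 7 of 8 cases, none called, with a median of 0.67. Their sums overlapped, at 4846 to 9514 RPM against 4080 to 9408 RPM. No defining marker of the neuron, astrocyte or microglia lists was at 0 in either group. The part of these cells in the members' differences was not tested. Of the neuroblast list 14 of 15 tested genes were lower and none was called (Robo2 −1.93, Stmn2 −2.32, Nrep −4.98 and Dlx6os1 −3.71), of the GABAergic list 6 of 8 (Gad1 −2.42) and of the granule list 6 of 7 (Penk −5.24, Pcp4 −3.28), again none called. Of the dopaminergic list 3 of 6 were lower and of the progenitor list 4 of 7 were higher, none called, beside a median of −0.10 for all genes tested.

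Over the 16 group means of log2(RPM + 1), the members followed each other to different degrees. Among 45 pairs Pearson's r lay between 0.363 (Dcx and Th) and 0.897 (Dlx1 and Sp8), with a median of 0.751, given as a description since groups share region, sort and normalization. Among 12068 genes with a group mean of at least 10 RPM, the 10 most like the mean profile of the members were S100a5 (r = 0.955), Myo16 (0.917), Dlx6os1 (0.912), Lgr5 (0.910), Stoml3 (0.896), Slc32a1 (0.894), Omp (0.893), Penk (0.891), Ablim3 (0.888) and Gad1 (0.887). S100a5, Stoml3 and Omp are known from olfactory sensory neurons, whose axons end in the bulb; Slc32a1 and Gad1 from GABAergic neurons; and Penk from periglomerular and granule cells.

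**Figure D5:**
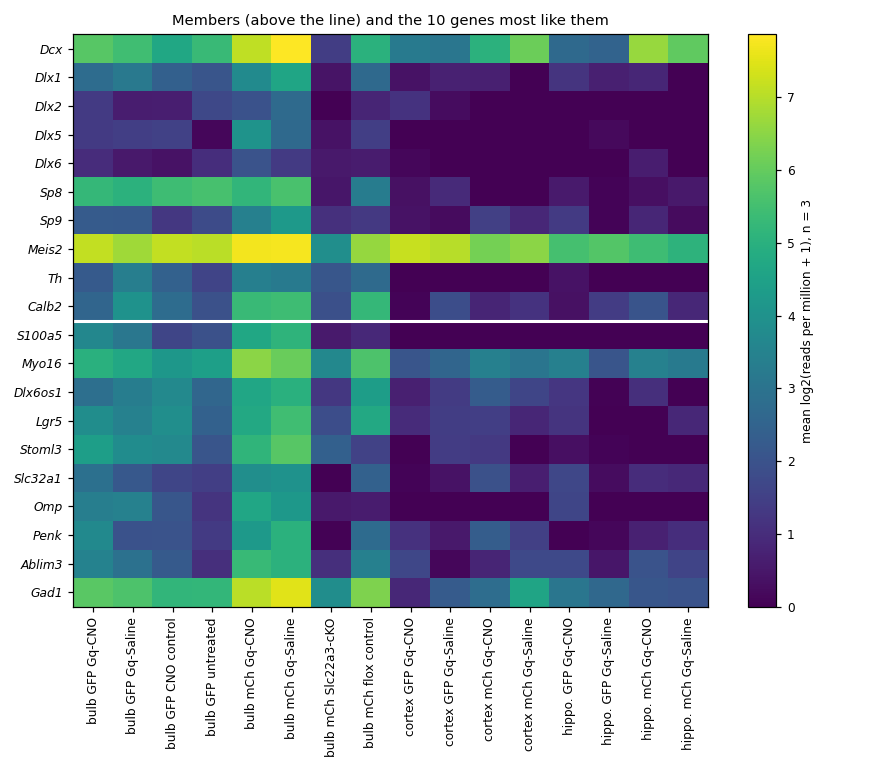
Heat map of the group mean of log2(RPM + 1) for the 10 members (above the white line) and the 10 genes with the highest Pearson r to their mean profile (below it) over the 16 groups. Most rows are brighter in most bulb columns than in cortical and hippocampal ones. The bulb column labelled Slc22a3-cKO is an exception, with most rows dark. Dlx2, Dlx5 and Dlx6 are also dark in the bulb GFP columns. Meis2 is bright in all regions, though dimmer in the column labelled Slc22a3-cKO. Dcx is present in all regions, but dimmer in cortical and hippocampal GFP columns than in the mCh columns of those regions.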

How the data were processed

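Gene values were read from 6 tables that the authors deposited as normalised signal, each library's reads divided by its own size factor. The submitters' processing notes name STAR 2.5.0a and build mm10 for alignment, DESeq2 1.30.1, and, for quality control, MultiQC 1.11 beside FastQC 0.11.7; the counting tool and annotation are not given in the sources used here. Per the labels' protocols, libraries were made from 10 ng of total RNA, with no mention of molecular identifiers, so intervals and floors cover counting error only. Whole reads were recovered from all 48 libraries (100% of values within 0.05 of a whole number) and gave 228048 to 24664376 reads per library and the RPM values. Of 48 pairs of replicates, 0 were identical, and all differed by more than sampling noise. In 4 cortical and hippocampal libraries the header number is 4, which is in no sample title, so they were matched by group alone, and 27 gene names have turned into dates.

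Treatment comparisons were fitted on the deposited values of 2 groups with limma 3.58.1 (trend) in R 4.3.3 on log2(value + 1). Region fits used the 18 libraries of a sort and the sort fit the 12 bulb libraries of Gq mice, on recovered reads divided by joint size factors. The filter asked for 3 or more libraries with a value of 10 or more, and calls needed a Benjamini-Hochberg adjusted p under 0.05 over all genes that passed it. Members under the filter had exact permutation tests over libraries. The fold of a low gene is understated on this scale. edgeR 4.0.16 and DESeq2 1.42.0 on recovered reads, other pseudocounts, no filter, quantile normalization, a replicate block, each treatment alone and each library left out were tried as alternatives. Region fits without the 3 libraries under 1000000 reads were chosen after seeing the data. The fits were tested on simulated data. All members are named in every comparison within the bulb or of the bulb with another region. Between cortex and hippocampus only Meis2 is named, and for Gq-CNO outside the bulb only Dcx and Meis2. Up to 4 genes of each companion list are named by smallest unadjusted p. The members and lists were chosen with earlier results of these data known. The result of 1 gene of a companion list is not reported here.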

Additional observations from a re-analysis of the deposited data

How the results depend on the processing

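Over 59 gene values and 1179 settings, 1037 kept direction and side of the threshold, 100 lost a call, 37 gained one and 5 reversed; the cause was not tested. The reversed log2 values were −0.073 for Dcx, Gq-CNO minus Gq-Saline in bulb GFP libraries, without Gq-CNO replicate 3 (between −0.073 and 0.79 over the 6 libraries left out in turn); 0.64 and 0.74 for Th, Slc22a3-cKO minus flox control, without Slc22a3-cKO replicate 2 and without flox control replicate 2 (between −1.96 and 0.74 over the 6); and, GFP minus mCh sort, 0.21 for Th with Gq-Saline libraries only and 0.11 for Sp8 with Gq-CNO libraries only. Members called in the Slc22a3-cKO comparison were 1, but 0 with a pseudocount of 0.1, no filter or the replicate block, 4 with a pseudocount of 10 or DESeq2, and 0 to 3 when 1 library was left out. With Gq-Saline or Gq-CNO libraries only, where fewer libraries enter, calls were 1 and 1 (all: 2) for bulb minus cortex GFP, 2 and 4 (9) for mCh, 2 and 1 (4) for bulb minus hippocampus GFP, 2 and 3 (8) for mCh, and 1 and 3 (5) for GFP minus mCh. The last was also 3 with a pseudocount of 0.1 or no filter. Leaving out 1 library gave 2 to 4, 8 to 9, 2 to 6, 7 to 8 and 3 to 7 calls, in that order. For cortex minus hippocampus GFP, calls were 0, but 1 with a pseudocount of 10, quantile normalization or DESeq2 and 0 to 1 without 1 library, and for mCh 0, but 1 with DESeq2. For CNO control minus untreated they were 0 to 1 without 1 library. All genes called were 341 for Slc22a3-cKO, against 195 (pseudocount 0.1), 524 (pseudocount 10), 1154 (DESeq2) and 105 (block); 649 for bulb minus cortex GFP, against 354 (block), 71 (Gq-Saline) and 205 (Gq-CNO); 1060 for mCh, against 171 and 341; 472 and 483 for bulb minus hippocampus, against 766 and 774 (DESeq2), 84 and 74 (Gq-Saline) and 163 and 189 (Gq-CNO). They were 3844 for GFP minus mCh, against 1932 and 2205; 19 for cortex minus hippocampus GFP, against 33 (quantile), 215 (DESeq2), 2, 8 and 11 (low depth out); and 48 for mCh, against 28 (pseudocount 0.1), 25 (no filter), 180 (DESeq2), 3 and 4. The Gq-CNO effect gave 1 called gene in bulb GFP, against 0 in 5 settings, and 0 elsewhere, against 2 in bulb mCh, 3 in cortical mCh, 5 in hippocampal GFP and 13 in hippocampal mCh with DESeq2, and 2 in cortical mCh with no filter. Of calls in the Slc22a3-cKO comparison 54.0% were higher, against 43.1% with DESeq2; in bulb minus cortex mCh 65.1%, against 54.3% (quantile), 53.6% (edgeR) and 54.8% (DESeq2); and in bulb minus hippocampus GFP 61.2%, against 51.2% with edgeR. Deviations of libraries of the same number were weakly correlated (142 pairs, r between −0.0935 and 0.132). In cortex minus hippocampus GFP all 18 pairs were positive (r between 0.0416 and 0.126). Such values cannot settle whether numbers pair samples, and the main fits did not pair them. With the replicate block, bulb minus hippocampus GFP had 3 members called and, beside the Slc22a3-cKO comparison, no other count of members called changed. Depth was lowest in the cortical mCh sort, where 2 of 6 libraries held under 1000000 reads; 1 cortical GFP library did too.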
